A study of Mus musculus with 4 samples.

Results

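Wt1 encodes WT1, a DNA-binding protein with zinc fingers that kidney formation requires, and the gene was examined here for binding by its own product. All rows of the 3 deposited peak files were taken whose midpoint lay inside Wt1 (mm10, chromosome 2, 105126529 to 105173614, 47.1 kb) or within 200 kb of it. This gave 13 of the 17234 regions found in both WT1 samples, 29 of the 53132 peaks of WT1 replicate 1 and 28 of the 57641 peaks of WT1 replicate 2. The tissue was microdissected kidney of wildtype mouse embryos at E18.5, of a mixed background of C57Bl6 crossed with B6DBA/F1, and the animals carried no transgene or allele per the labels. Chromatin immunoprecipitation with sequencing (ChIP-seq) was done with the WT1 (C-19) antibody in 2 samples and with IgG as the negative control in 2 samples. Values of the IgG samples were not used here.

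WT1 is made in nephron progenitors and, at its highest level, in podocytes, the cells of the glomerular filter, and mutation of the gene is known in Wilms' tumour and in glomerular disease. The zinc fingers lie at its C-terminal end, and forms that lack the amino acids lysine, threonine and serine (KTS) between the last of them bind GC-rich DNA related to the sites of the EGR family. Control of a transcription factor gene by its own product is called autoregulation, and WT1 is known from reporter assays to act on its own promoter. Wt1os is a long non-coding RNA gene read away from Wt1 on the opposite strand. Wt1 is known to be read towards higher coordinates, so its lower-coordinate end is its 5′ end. The gene table gives neither strand nor exons, so the part of Wt1 that a peak covers cannot be named as exon, intron or UTR. These files measure binding only, and whether any site changes the level of Wt1 RNA was not measured.

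The strongest site of the interval lay where Wt1os and Wt1 meet. Its region was 516 bp wide (chromosome 2, 105126176 to 105126691), and its midpoint was 95.5 bp before Wt1. It covered 335 bases at the higher-coordinate end of Wt1os, the 18 bases between the genes and the first 163 bases of Wt1. Sequences from the Wt1 side of this region are shown because they lie within it and next to the start of Wt1, past the region's midpoint. RefSeq promoter windows of GRCm38.p6, the assembly mm10 is based on, run from 250 bases before to 50 after a gene's start, and such a window for Wt1os (chromosome 2, 105126461 to 105126760, minus strand) had 231 of its 300 bases in the region. The stretch of this window outside Wt1 and the matches within the region read, on the minus strand, with capitals marking a motif match:
Wt1os start, chr2:105126461-105126528: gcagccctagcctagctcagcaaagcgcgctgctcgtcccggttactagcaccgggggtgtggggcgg
Wt1os window, chr2:105126638-105126666: agagccccggGTGTGGGCGctgccttgaa
Wt1os window, chr2:105126549-105126577: cagcagggaaGGAGGAGGAgccaggatgc

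Letters were searched on both strands for GNGTGGGNG and GNGGGGGNG, which are EGR-like, for TCCTCCTCC, a repeat known from WT1 binding studies, and for GGGNGGGG, which can overlap the others. The Wt1os window held 5 matches to GNGTGGGNG, and 14.3% of all 32817 windows held at least 1. Of these, only the match at 105126648 to 105126656 lay in the reproducible region, 4 bp from the higher-coordinate end of the replicate 2 peak. The other 4, in a run of overlapping and neighbouring repeats between 105126715 and 105126743, began past the region's edge. The window held 231 of the region's 516 bases, and the rest of the region, with its midpoint, was not searched. TCCTCCTCC occurred once, at 105126559 to 105126567 and so within the region, and 3.03% of windows held it. GNGGGGGNG and GGGNGGGG had no match in this window, while 18.8% and 33.2% of all windows held them. The 68 bases outside Wt1 held no match to any of the 4 motifs. G and C made up 66.7% of the Wt1os window, against a median of 52.7% over all windows. The part of base composition in the matches was not tested. Of the windows, 1.9% overlapped a reproducible region by at least 1 bp, and among those 625 windows GNGTGGGNG was held by 33.0%, TCCTCCTCC by 10.4%, GNGGGGGNG by 49.1% and GGGNGGGG by 59.2%. The median share of G and C in those windows was 62.7%, and 33.0% of them had at least that of the Wt1os window. A match is a description of letters and not evidence of a bound base.

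Each deposited peak carries 1 value between 0 and 0.05, read as the authors' p-value or q-value and called the significance value here. Each region found in both samples carries an irreproducible discovery rate (IDR), the authors' estimate of the error in calling it repeated, and a region with an IDR of 0.05 or lower is called reproducible. At the start of Wt1, replicate 1 had a peak of 492 bp (105126200 to 105126691) with a significance value of 5.2e-14. Replicate 2 had a peak of 485 bp (105126176 to 105126660) with 1.39e-35. The peaks shared 461 bases, their lower edges were 24 bp apart and their higher edges 31 bp apart. Both samples therefore placed the same stretch under a peak, and in both it was the smallest significance value of the interval. In replicate 1 it ranked 820 in the whole list, among the first 1.54%, and in replicate 2 it ranked 515, among the first 0.893%. The IDR of the region was 4.99e-06, rank 490 of all regions found in both samples, among the first 2.84%. Whole kidneys were used, and binding in few cells cannot be told apart from weaker binding in many.

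**Figure D1:**
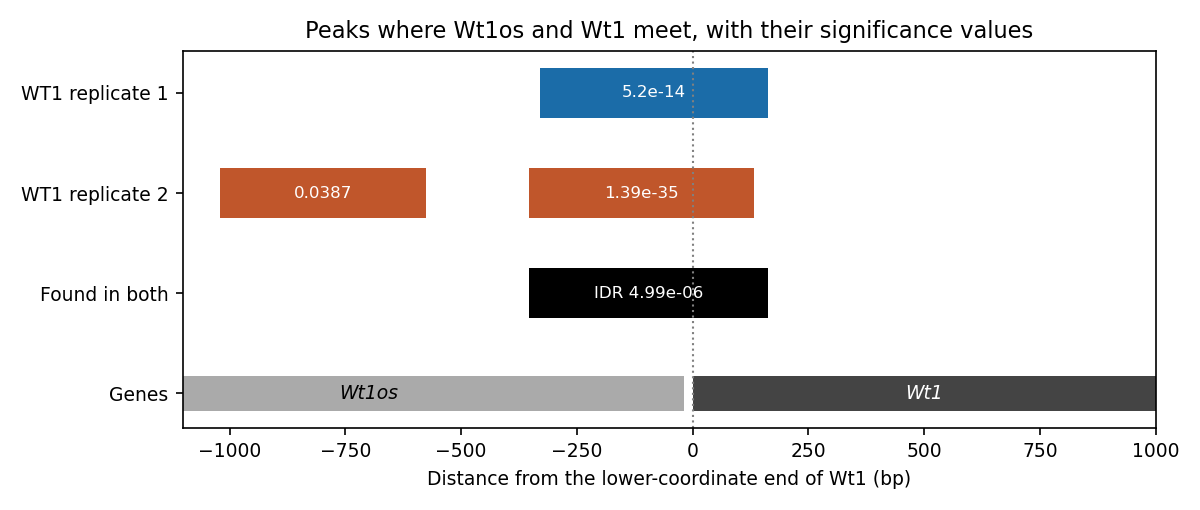
Peaks of WT1 replicate 1, WT1 replicate 2 and the region found in both, drawn to scale by distance in bp from the lower-coordinate end of Wt1 (dotted line), with significance values or the IDR written on the bars. The main peak of replicate 1 runs from 329 bases before the start of Wt1 to 163 bases within it. That of replicate 2 runs from 353 bases before to 132 bases within, and replicate 2 has a further, weak peak in Wt1os.

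Of protein-coding genes, 4.13% (905 of 21887) had a reproducible region within 1 kb of an end, as Wt1 did, and 10.8% had one of any IDR there. Among those 905 genes Wt1 ranked 84 by IDR, 135 by the replicate 1 value and 93 by the replicate 2 value. Their median IDR was 0.00265, with median significance values of 2.32e-06 in replicate 1 and 4.08e-13 in replicate 2. Wt1 thus stood among the first 9.28% of these genes by IDR, and its significance values were smaller than their medians in both samples. These ranks describe a gene that was chosen for its biology with earlier results in view, so no test was made.

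Upstream of Wt1, on the lower-coordinate side, 3 more reproducible regions followed one another at 29.1, 67.6 and 99.1 kb from the gene. The nearest lay inside Wt1os (105097053 to 105097813, 761 bp, the widest of the interval, IDR 0.000215). Its significance values were 4.41e-08 in replicate 1 and 2.82e-21 in replicate 2. The middle one lay between genes (105058702 to 105059182, IDR 0.000764). There replicate 2 had 1 peak at 1.66e-18, and replicate 1 had 2 narrower ones under it, at 0.0173 and 1.53e-08. The farthest also lay between genes (105027301 to 105027613, IDR 0.00123). Its value was 1.69e-13 in replicate 1 and 4.78e-10 in replicate 2, so that in replicate 1 it came next to the gene start, and in replicate 2 it was the weakest of the reproducible regions here. Counted with the gene start, 4 of the 5 reproducible regions lay on this side, the next beyond them being 859 kb from Wt1.

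On the same side lay 2 regions that both samples listed but that did not pass. The one inside Eif3m, beyond the farthest reproducible region, which encodes a subunit of the translation initiation factor eIF3, was the closest to passing, with an IDR of 0.065 (105003647 to 105003789, 123 kb from Wt1). Its significance values were 4.92e-05 in replicate 1 and 0.000844 in replicate 2, and both lists gave it the same start and end base. The one inside Wt1os, 6.23 kb from Wt1 (105120230 to 105120372), had 0.0173 in replicate 1, 0.0156 in replicate 2 and an IDR of 0.333. Of the regions that passed, the one with the highest IDR was at 105336367 to 105336650, with 0.00429, well below the threshold of 0.05.

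No region found in both samples had its midpoint inside Wt1, although the gene start region covered the gene's first 163 bases. By midpoint, replicate 1 listed 3 peaks inside Wt1, at 5.09, 23.0 and 41.4 kb from the lower-coordinate end. Their significance values were 0.0207, 0.0371 and 0.0436. Replicate 2 listed 1, at 5.85 kb (105132339 to 105132422), with 0.000828. This was the smallest value among peaks of the interval seen in a single sample, and 646 bp separated it from the nearest replicate 1 peak. None of the 4 therefore recurred. A region of any IDR had its midpoint inside 21.1% of protein-coding genes, and inside 28.0% of the 6458 genes of 0.5 to 2 times the length of Wt1. Having none inside by midpoint, as Wt1 did, is thus the more frequent case. A reproducible region lay inside 7.95% of genes by the same rule. Depth is unknown, so a weaker site in the gene may have been missed here.

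Beyond the higher-coordinate end of Wt1 the picture differed. From the gene start region, 99.3 kb passed without a region found in both samples, and the 7 regions on this side all lay inside Them7, a protein-coding gene of 156 kb. The single reproducible one was 163 kb from Wt1 (105336367 to 105336650), with 0.000108 in replicate 1 and 1e-17 in replicate 2. The one nearest Wt1 (105225989 to 105226350, 52.6 kb away) had 0.0173 in replicate 1 and 1.2e-05 in replicate 2, with an IDR of 0.223. A run of 4 regions within 1.64 kb, between 105234419 and 105236062, had IDRs between 0.176 and 0.543. In that run the values ran from 0.0106 to 0.0436 in replicate 1 and from 0.000844 to 0.00651 in replicate 2. The last region (105336709 to 105336939) began 59 bp past the reproducible one and had an IDR of 0.43, with 0.0195 in replicate 1 and 0.00623 in replicate 2. At these 6 weaker regions replicate 2 gave the smaller value throughout, while replicate 1 stayed above 0.01.

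**Figure D2:**
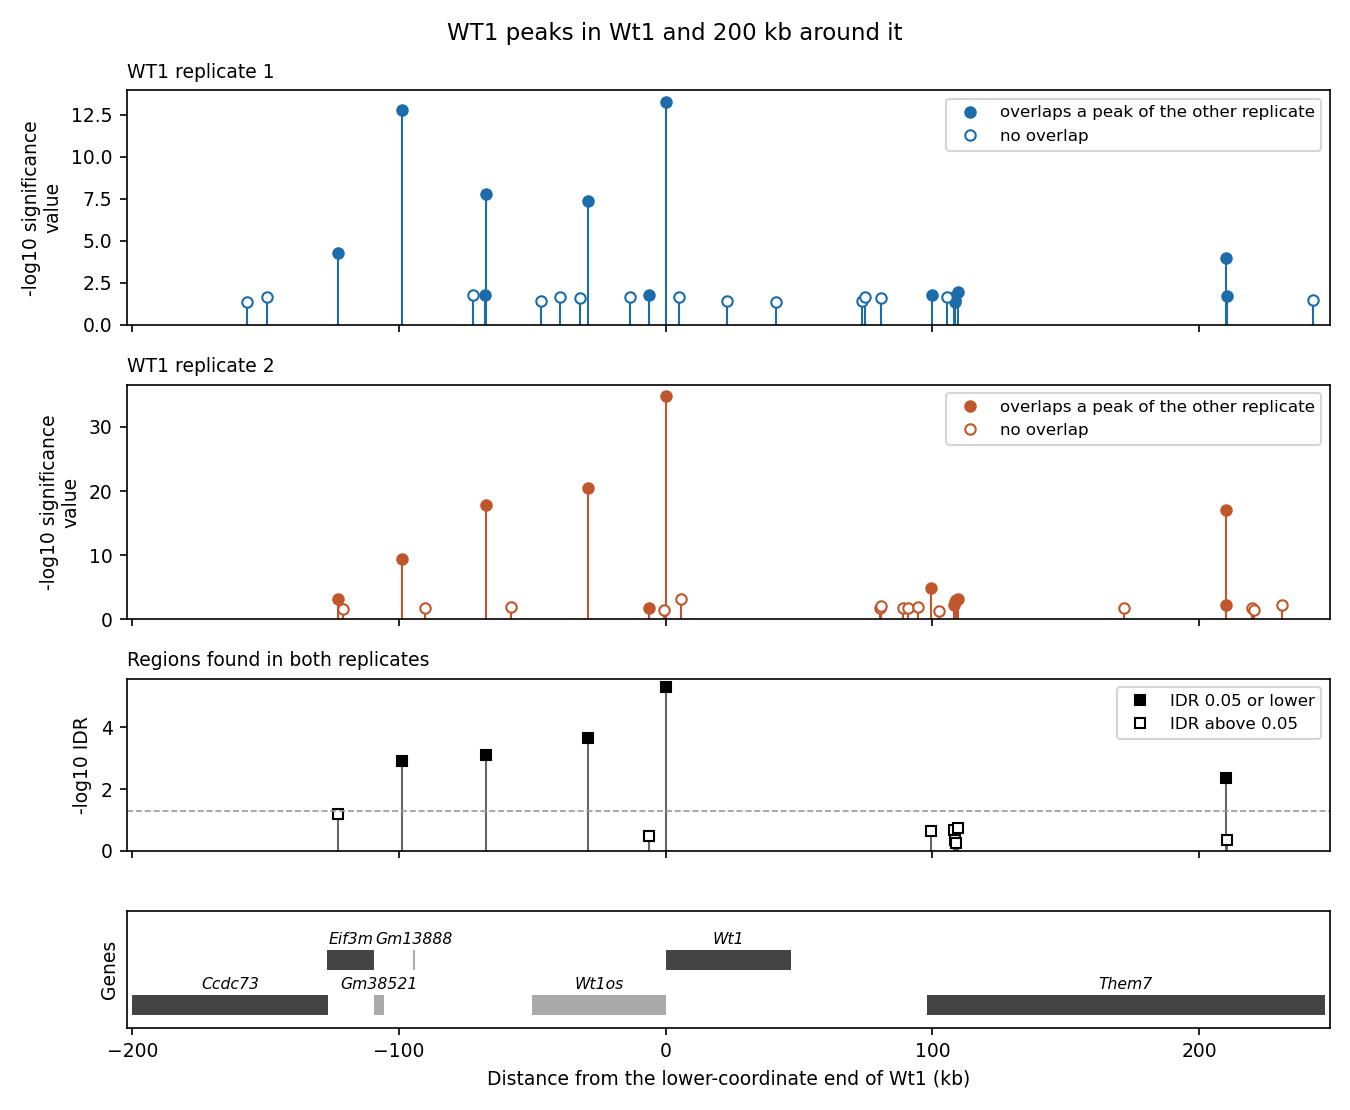
Significance values of the peaks of WT1 replicate 1 (top) and WT1 replicate 2 (second), on a -log10 scale with different ranges, the IDR of the regions found in both (below them; dashed line at 0.05) and the annotated genes (bottom; dark for protein-coding, light for others), by distance in kb from the lower-coordinate end of Wt1. Filled symbols stand at the gene start and at 29.1, 67.6 and 99.1 kb before it in all upper panels, and Wt1 itself holds open symbols only.

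In all, 5 of the 13 regions found in both samples were reproducible, against 25.6% of the whole table. Of the replicate 1 peaks in the interval, 14 of 29 overlapped a peak of replicate 2, against 34.1% of the whole list. Of the replicate 2 peaks, 13 of 28 overlapped a peak of replicate 1, against 30.8%. The peaks that did not recur had a lowest, median and highest value of 0.0173, 0.0261 and 0.0436 in replicate 1 (15 peaks) and of 0.000828, 0.0161 and 0.0454 in replicate 2 (15 peaks). Every replicate 1 peak of the interval under 0.001, 6 in number, was found again, as were 9 of the 10 such peaks of replicate 2, the exception being the one inside Wt1. The same share over all peaks under 0.001 is not given here, so these counts cannot be read as particular to the interval. The peaks that did recur spanned a wider range, with a lowest, median and highest value of 5.2e-14, 0.014 and 0.0436 in replicate 1 (14 peaks) and of 1.39e-35, 0.000844 and 0.0156 in replicate 2 (13 peaks), so weak peaks stood in both sets.

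Replicate 2 gave the smaller value at 11 of the 13 regions, and it did so at 75.4% of regions in the whole table. The 2 exceptions were the region inside Eif3m and the one 99.1 kb before Wt1. Of the 12 regions with exactly 1 peak in each list, 6 had the identical start base in both lists, against 40.2% in the whole table, and 2 the identical end base, against 39.9%. Per the labels' protocols, DNA was cut with AluI (AGCT) or HaeIII (GGCC), each with MseI (TTAA), before amplification. Over all promoter windows, 34.1% of replicate 1 peak edges and 27.7% of replicate 2 peak edges lay within 1 bp of such a site, against 8.66% of all bases. Of windows that overlapped a reproducible region, 91.5% held AGCT and 87.7% GGCC, against 77.6% and 72.8% of all windows. TTAA went the other way, with 42.4% against 52.4%. The share of bases near a site in windows with peaks alone is not given here. At the start of Wt1 the peak ends within the Wt1os window were 65 bp (replicate 1) and 34 bp (replicate 2) from the nearest site in it and so not at one.

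**Figure D3:**
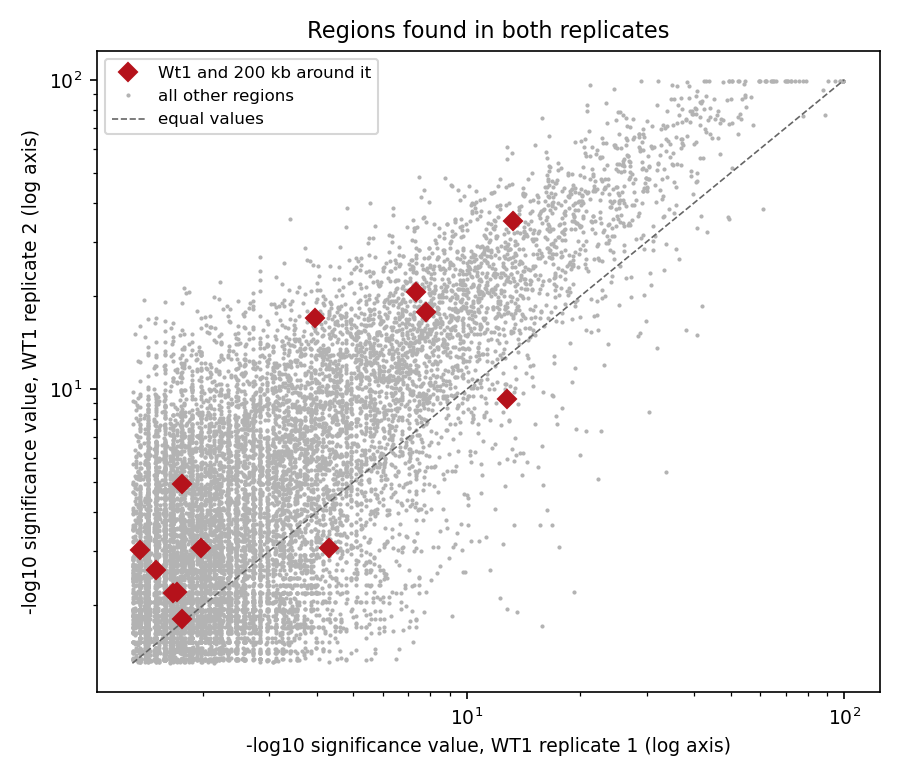
Significance values of every region found in both samples, as -log10 on log axes, in WT1 replicate 1 (horizontal) and WT1 replicate 2 (vertical), with the smallest value taken where several peaks overlap a region and values of 0 set to the smallest above 0. The 13 regions in and around Wt1 (red diamonds) lie among all others (grey), 11 of them above the line of equal values.

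The density of reproducible regions around Wt1 was above that around most genes. The interval of 447 kb held 5, or 11.2 per Mb, against a median of 1 region and of 2.08 per Mb around protein-coding genes measured the same way. As many or more were found around 4.11% of protein-coding genes by number and around 3.38% per Mb, and at least 1 around 53.7%. At an IDR of 0.01 or lower, where Wt1 still had 5, as many or more were found around 1.81% of genes. Genes that lie close together share such intervals, so these shares do not count independent loci. The highest number, around a single gene, was 16.

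**Figure D4:**
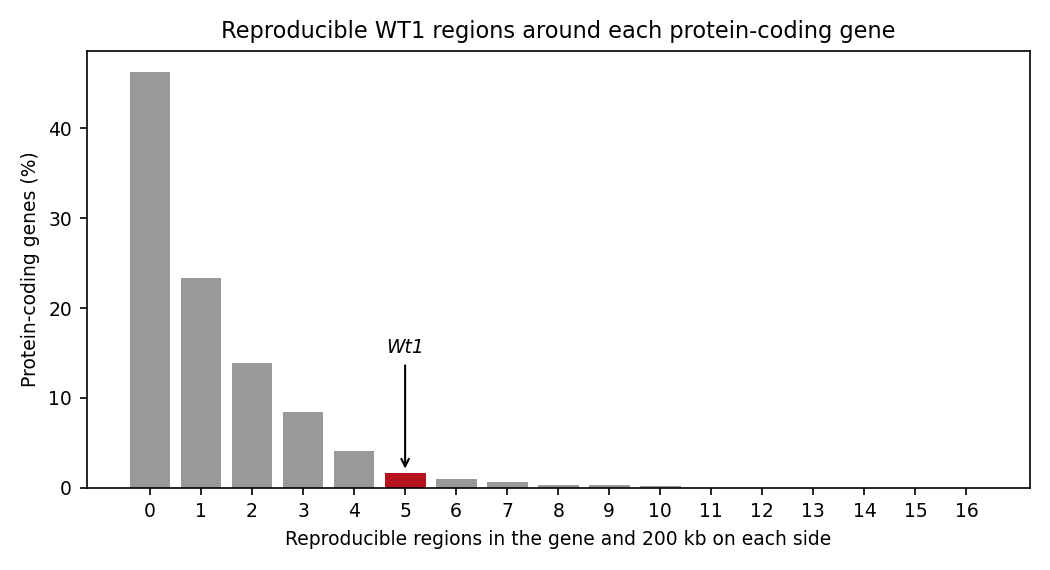
Share of the 21887 protein-coding genes, in percent, by the number of reproducible WT1 regions in the gene and 200 kb on each side. The bar that holds Wt1, with 5 regions, is red and holds 1.67% of genes, while 46.3% of genes have none.

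Among the 7 annotated genes of the interval, Wt1 and Wt1os were the only ones with a reproducible region within 1 kb of an end, through the same region, whose midpoint was 76.5 bp inside Wt1os. By midpoint, Wt1os held 2 reproducible regions inside, Them7 1, and Wt1, Eif3m, Ccdc73, the non-coding gene Gm38521 and the pseudogene Gm13888 none. The smallest significance value inside or within 10 kb was 5.2e-14 in replicate 1 and 1.39e-35 in replicate 2 for Wt1. For Them7 these were 0.000108 and 1e-17, and for Eif3m and Ccdc73, whose ends overlap, they were 4.92e-05 and 0.000844. Gm38521 and Gm13888 were 6.73 and 4.26 kb from the region 99.1 kb before Wt1. An end of Eif3m was 10.4 kb from that region, which thus lay nearer to these genes than to Wt1. Wt1os, which shares the region at the start of Wt1, had the same smallest values as Wt1. Near Gm38521 and Gm13888 the smallest values were 1.69e-13 and 4.78e-10, close to those of Wt1 in replicate 1 only. Peaks were also counted by midpoint over whole genes, of which Ccdc73 and Them7 run past the interval. The replicate 2 peaks of Ccdc73 lay outside it. Wt1 held 3 peaks of replicate 1 and 1 of replicate 2 inside, against 7 and 4 in Wt1os, 9 and 12 in Them7, 3 and 2 in Ccdc73, 1 and 2 in Eif3m, and 0 in both samples in Gm38521 and Gm13888. Per 100 kb of gene this was 6.37 in Wt1 for replicate 1, against 14.0 in Wt1os, 5.79 in Them7, 2.65 in Ccdc73 and 5.76 in Eif3m. For replicate 2 it was 2.12 in Wt1, against 8.0 in Wt1os, 7.72 in Them7, 1.76 in Ccdc73 and 11.5 in Eif3m. The order of the genes thus differed between the samples, and these are values of single genes with no test.

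The interval ended just short of another site. The first region past it on the higher-coordinate side lay 226 kb from Wt1 (105399483 to 105399928), 0.387 kb from an end of Rcn1, which encodes a calcium-binding protein of the endoplasmic reticulum. It was reproducible, with an IDR of 0.000271 and values of 1.18e-07 in replicate 1 and 2.62e-19 in replicate 2. On the lower-coordinate side the first region outside was 235 kb from Wt1, inside Ccdc73, with an IDR of 0.17.

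The 5 genes whose gene-end region came closest to that of Wt1 in the -log10 significance values of both samples (a distance over n = 2 samples) were Thumpd3, Cct7, Pradc1, Sox13 and Wwc1. Thumpd3, which encodes a tRNA methyltransferase, had 2.29e-14 in replicate 1 and 3.22e-36 in replicate 2. Cct7, which encodes a chaperonin subunit, and Pradc1 shared 1 region, with 6.96e-14 and 6.25e-37. Sox13, a SoxD transcription factor gene, had 1.49e-12 and 6.51e-36, and Wwc1, of the Hippo pathway, had 6.49e-15 and 2.88e-34. Around Wt1 there were 5 reproducible regions in the gene and 200 kb around it, against 3 for Thumpd3, 1 each for Cct7 and Pradc1, 4 for Sox13 and 2 for Wwc1. The GNGGGGGNG match read for Wwc1 and the GNGTGGGNG match read for Pradc1 lay outside the bound region, and no match is given for Sox13. A match inside the region was thus not read for all of these genes. To set letters of Thumpd3 and Cct7 beside those at Wt1, the first motif match upstream of the start within the bound region is shown. Each reads on the plus strand, with capitals marking matches to GNGTGGGNG and to GNGGGGGNG on the opposite strand:
Thumpd3, chr6:113046270-113046298: ctaccccggaGCGTGGGAGcaccgtgccc
Cct7, chr6:85451440-85451468: ttcgcggcccCGCCCCCGCactcctcctt

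Genes known to act on Wt1 or with its product were read against the 10.2% of protein-coding genes with a reproducible region within 10 kb of an end. Of 7 genes reported to regulate Wt1, 2 had one: Pax8 and Pax2, paired-box factors of nephron formation, while Tcf21, Sp1, Ets1, Hif1a and Gata1 had none. Within 10 kb of an Ets1 end the lowest IDR was 0.0537, just outside the threshold, with 0.00357 in replicate 1 and 5.77e-11 in replicate 2. Of 7 genes for partners of the WT1 protein, 2 had one. U2af2, a splicing factor gene, had a region 0.385 kb from an end at an IDR of 1.32e-06, with 2.82e-22 in replicate 1 and 2.63e-50 in replicate 2, both smaller than at Wt1. Trp53, which encodes p53, had one 0.083 kb from an end at an IDR of 0.0121, with 4.92e-05 and 3.96e-07. Basp1, Pawr, Wtap, Crebbp and Ciao1 had none. Ets1 and Pawr each held 1 reproducible region inside the gene, more than 10 kb from an end. Of all protein-coding genes, 7.95% held a reproducible region inside. In the EGR family, whose factors bind related DNA, 3 of 4 genes had one, the strongest at Egr3 (IDR 6.07e-07, 2.69e-27 in replicate 1 and 9.37e-58 in replicate 2), with Egr1 and Egr2 also called and Egr4 not. Wt1, with 5 reproducible regions in the gene and 200 kb around it, was matched or exceeded by Pax8 with 6, Tcf21 with 5 and Egr3 with 7 among these 18 genes. With so few genes in each list, these counts are descriptions of named genes.

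The peak files hold no read counts, so no error can be put on a single value beyond its recurrence in the other sample. The labels call the experiments independent but do not say which animals were used for each.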

How the data were processed

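ChIP-seq was done on microdissected E18.5 mouse kidneys, with 2 WT1 and 2 IgG samples per the labels; the authors deposited peaks of each WT1 sample and the regions that both share. The deposited lists give 1 significance value per peak, which by its range (0 to just under 0.05) is a p-value or q-value; the deposited table gives an irreproducible discovery rate, an error rate per region. Per the submitters' processing notes the build is mm10. The sources used here do not give the aligner, the peak caller, the use of IgG reads or the depth.

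Positions are 1-based. Rows were taken by midpoint, and peaks overlapping by at least 1 bp were called shared. Gene positions came from RefSeq genes of GRCm38.p6 (21887 protein-coding genes on placed chromosomes); promoter windows matched 5 of the 7 genes of the interval, and Wt1 and Gm13888 are named only. Counting functions were tested on simulated data (python 3.11.15, pandas 2.3.3, numpy 2.4.6). There is 1 group with files, so no test was made. The named genes were Wt1, the genes of the interval, the 5 most like Wt1, and lists of regulators, partners and EGR genes. Wt1 and the lists were chosen with earlier results of these data known.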

Additional observations from a re-analysis of the deposited data

How the results depend on the processing

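With a window of 50 kb in place of 200 kb the counts at Wt1 became 2 reproducible regions, 3 regions found in both samples, 13 peaks of replicate 1 and 10 of replicate 2. With 100 kb they were 4, 10, 23 and 20. The counts with 200 kb did not change when any base in the window counted. Peaks with a significance value of 0.01 or lower numbered 6 in replicate 1 and 15 in replicate 2. The reproducible regions numbered 5 at an IDR of 0.01 and 6 at 0.1. From the 4411 peaks with the smallest values of a single replicate there were 5 to 6 (6 without replicate 2, 5 without replicate 1). With an overlap of 50% of both peaks, 12 peaks of each replicate were shared. The nearest edge of the gene start region was 0 bp from Wt1, since the region covers the end, against 95.5 bp for its midpoint. The share of genes with as many reproducible regions as Wt1 was 1.81% at an IDR of 0.01, where the number at Wt1 stayed at 5 and fewer regions were counted elsewhere. No paired analysis was possible because only the WT1 samples have files here. Depth is unknown, so a site without a peak cannot be called unbound.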
